A study of Mus musculus with 10 samples.

Results

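Open chromatin of group 2 innate lymphoid cells (ILC2s) from the bone marrow (BM) was compared with that of ILC2s from the pancreas, region by region. All regions with at least 1 read count were taken, which left 49981 of the 50039 regions in the merged table, and 4 of its 10 libraries, 2 of BM and 2 of pancreas. In ATAC-seq, the Tn5 transposase cuts accessible DNA and leaves adapters there, and a region with more reads was more accessible. The regions are peaks merged over ILC2s of 5 tissues, and each took the name of the RefSeq gene whose transcription start site (TSS) lay closest, which need not be the gene it regulates.

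ILC2s are tissue-resident lymphocytes without antigen receptors that depend on the transcription factor GATA3. They sense alarmins such as IL-33, which binds to ST2, and answer with the type 2 cytokines IL-5 and IL-13 and with amphiregulin. They arise from BM progenitors, settle in tissues early in life, and then take on characters of the tissue they live in. Promoters are open in most cell types, whereas distal open chromatin regions (OCRs) differ more between cell states and carry binding sites for the factors that drive them.

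Both groups came from male wild-type C57BL/6 mice aged 6 weeks, without treatment. Each library held 50000 sorted cells, and cells of 16 mice were pooled for BM and for pancreas. The 2 libraries of a tissue are called biological duplicates, but whether they came from separate pools of mice is not stated, so p-values measure the spread between these libraries. BM cells were flushed from femur and tibia and sorted as lineage-negative cells with ST2 and CD25. Pancreas cells were released with collagenase (the labels add DNase, which the study's methods leave out), enriched on Percoll, and sorted with CD45 and CD127 as further markers, on another sorter. Tissue, gate, digestion, and sorter therefore changed together and cannot be told apart here. The lineage mix (CD3, B220, CD11b, CD11c, FceRI) held no marker of red cell precursors, and the BM gate did not use CD45. In such pooled cells, a change in the share of a cell type and a change of accessibility within cells cannot be told apart.

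The sequences below are 200 bases around the centre of 3 intronic or intergenic regions in each direction, all among the 6 largest differences of that direction (*C330018D20Rik* and *Gm46637*, higher in BM, are not shown), read from the plus strand of GRCm38 (mm10), and they show what kinds of letters these differences lie on. Capitals mark matches on either strand to letters of AP-1 (TGANTCA), of Kruppel-like factors (CCNCACCC), of the E-box (CAGCTG), of RUNX factors (TGTGGTT), of NFY (CCAATNAG), of nuclear receptor half-sites (AGGTCA), and of factors of the GATA family (AGATAA). The first 3 regions were more open in BM.

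*Ranbp10* region, chr8:105821072-105821271: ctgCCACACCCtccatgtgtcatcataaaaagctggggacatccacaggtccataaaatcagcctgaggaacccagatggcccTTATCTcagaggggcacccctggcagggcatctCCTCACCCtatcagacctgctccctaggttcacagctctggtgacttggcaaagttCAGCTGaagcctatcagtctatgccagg

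*Zdhhc19* region, chr16:32509568-32509767: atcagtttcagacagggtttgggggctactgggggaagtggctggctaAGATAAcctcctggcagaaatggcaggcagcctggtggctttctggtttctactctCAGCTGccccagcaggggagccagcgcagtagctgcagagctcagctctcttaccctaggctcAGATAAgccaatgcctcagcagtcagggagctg

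*Trim58* region, chr11:58641713-58641912: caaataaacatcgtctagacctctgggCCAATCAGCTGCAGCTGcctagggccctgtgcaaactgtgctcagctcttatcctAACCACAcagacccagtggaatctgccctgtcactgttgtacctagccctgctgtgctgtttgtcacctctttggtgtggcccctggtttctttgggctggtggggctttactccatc

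The *Trim58* window holds overlapping NFY and E-box letters. The next 3 regions were more open in the pancreas, and for *Slc17a6* and *9130019P16Rik* none of the 17 sets of letters searched lay in this window.

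*Gm43403* region, chr3:137838138-137838337: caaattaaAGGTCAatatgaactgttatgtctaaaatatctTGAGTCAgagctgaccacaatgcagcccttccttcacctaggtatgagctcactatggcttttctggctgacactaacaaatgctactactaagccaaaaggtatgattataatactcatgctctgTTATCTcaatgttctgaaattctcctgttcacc

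*Slc17a6* region, chr7:51725042-51725241: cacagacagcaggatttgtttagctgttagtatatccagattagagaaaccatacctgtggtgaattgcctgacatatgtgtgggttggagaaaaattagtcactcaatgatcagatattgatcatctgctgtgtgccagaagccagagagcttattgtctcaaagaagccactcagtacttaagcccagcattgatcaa

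*9130019P16Rik* region, chr6:54452455-54452654: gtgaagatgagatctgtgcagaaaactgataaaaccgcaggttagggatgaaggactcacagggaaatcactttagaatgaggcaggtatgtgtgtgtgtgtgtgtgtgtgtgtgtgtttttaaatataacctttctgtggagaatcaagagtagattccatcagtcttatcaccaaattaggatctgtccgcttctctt

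The BM libraries held 21210346 and 22931454 counts and the pancreas libraries 17741625 and 10282987, with median counts per region of 138, 138, 124, and 71. Values below are CPM, counts scaled to a common library total, with TMM factors that level the libraries on the bulk of their regions. A single region took from 2.73% to 9.0% of a library's counts, the latter in pancreas replicate 2. Replicates correlated at a Spearman coefficient of 0.960 in BM and 0.956 in pancreas over all regions, while pairs across the tissues lay between 0.800 and 0.869.

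ILC2s of the tissues differed at 12111 regions, 24.2% of those tested (edgeR's quasi-likelihood test over the 10 libraries, Benjamini-Hochberg adjusted p under 0.05). More regions passed the test as higher in the pancreas, 7167 (14.3%), than as higher in BM, 4944 (9.89%). The pancreas differences were also larger, with a median absolute log2 fold change of 1.46 against 0.91. A log2 fold change over 1 was reached by 5833 of the pancreas-higher and by 2028 of the BM-higher regions. Both libraries of the higher tissue lay above both of the other at 7166 and 4941 of the called regions, beside 33.2% (pancreas above) and 32.1% (BM above) of all tested regions. The BM-higher count rested more on single libraries. It was 858 without BM replicate 1, 3681 without BM replicate 2, 2514 without pancreas replicate 1, and 1388 without pancreas replicate 2, and the pancreas-higher count was 3575, 4818, 5451, and 3874 in the same order.

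Promoters and distal regions shifted in opposite directions. A region was a promoter when its centre fell between 1000 bp before and 100 bp after a TSS, intragenic when inside a gene otherwise, and intergenic when outside. Of 9518 promoters, 2116 (22.2%) were higher in BM and 360 (3.78%) in the pancreas. Among 24090 intragenic regions the counts were 1759 and 4052, and among 16373 intergenic regions 1069 and 2755. Promoters made up 42.8% of the BM-higher and 5.02% of the pancreas-higher regions, against 19% of all tested regions. Without pancreas replicate 2 the promoter share of BM-higher regions lay close to that of all regions, and without BM replicate 1 it fell less far. Against pancreas replicate 1 alone, the median log2 difference of BM replicates 1 and 2 was 0.28 and 0.23 at promoters. At intragenic regions it was -0.06 and -0.07, and at intergenic regions -0.05 and -0.06. The promoter differences were small, since the BM-higher promoters had a median log2 fold change of 0.75 and 15.3% of them exceeded 1, compared with 58.4% of the intragenic and 63.2% of the intergenic BM-higher regions. Among BM-higher regions with a log2 fold change over 1, promoters made up 16.0%.

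The log2 fold change moved with GC content, and promoters lay above other regions of like GC content. BM-higher regions had a median GC content of 57.4%, pancreas-higher regions 46.4%, and all tested regions 49.8%. Outside promoters, the median log2 fold change rose from -0.32 at regions under 40% GC to 0.28 at regions of 70% GC and more, and at promoters from -0.28 to 0.39. At 50 to 55% GC the median was 0.24 at promoters and -0.05 at other regions, and at 60 to 65% it was 0.36 and 0.20. The trend had the same direction in each of the 4 pairs of a BM and a pancreas library, and was steepest against pancreas replicate 2, the library with the fewest counts. When a trend with GC content and width was removed from each library, 4992 regions were higher in BM and promoters made up 19.3% of them, close to their share of all regions, and 5481 regions were higher in the pancreas with a promoter share of 7.61%. Promoter medians by GC bin then lay between 0.09 and 0.31, and those of other regions between -0.02 and 0.09. With a trend in mean count removed, the promoter shares were 25.6% and 5.12%. The part of GC content in the promoter difference was not tested further.

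**Figure D1:**
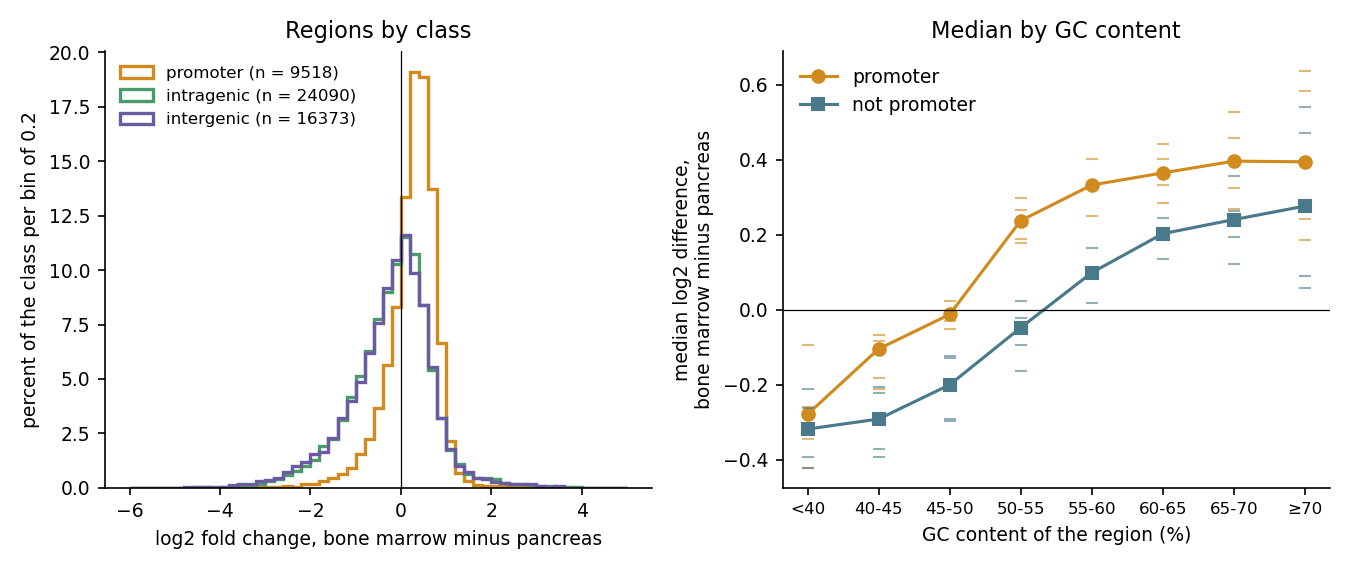
Left, the distribution of the log2 fold change between BM and pancreas (x axis) as a percent of each class per bin of 0.2 (y axis), where the promoter curve peaks to the right of 0 and the other classes reach farther to the left. Right, the median log2 difference (y axis) by GC content of the region in percent (x axis); points joined by lines are medians of the fitted fold change for promoters and other regions, and dashes are the medians of the 4 pairs of 1 BM and 1 pancreas library, which rise from below 0 in the lowest bin to above 0 in the highest.

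The 10 regions that stood highest in BM included an intron of *Slc4a1*, which encodes the band 3 anion exchanger of red cells, an intron of *Trim58*, a ubiquitin ligase of erythroblasts, and an intron of *Ranbp10*, a relative of the Ran-binding protein RanBP9. The promoter of *Gid8*, a subunit of a ubiquitin ligase complex, came first (chr2:180712255-180712755), with 16.0 and 8.42 CPM in BM replicates 1 and 2 and 0.412 and 0.647 CPM in the pancreas. Its log2 fold change was 4.57 ± 0.59 (SE), with an adjusted p of 6.02e-05. The *Ranbp10* region had 23.3 and 12.3 CPM in BM and 0.707 and 1.08 CPM in the pancreas, and the *Slc4a1* region (chr11:102363559-102364059) 14.7 and 5.20 CPM against 0.589 and 0.647 CPM. At *Trim58* the values were 11 and 4.69 CPM against 0.353 and 0.647 CPM, and at the intergenic *Zdhhc19* region 25.2 and 8.10 CPM against 0.824 and 1.08 CPM. The other 5 of these 10 regions lay nearest to *C330018D20Rik*, *Gm46637*, *Dnajc11*, *F2rl2*, and *Syf2*, with log2 fold changes from 3.90 to 4.40. In all 10, BM replicate 1 was higher than BM replicate 2, by 0.91 to 1.63 on the log2 scale, and both lay above both pancreas libraries. Without BM replicate 1, their log2 fold changes lay between 3.07 and 4.03 and 8 of the 10 passed the test, the exceptions being *C330018D20Rik* (adjusted p = 0.0636) and *Trim58* (adjusted p = 0.0674). Lung, large intestine, and small intestine ILC2s had at most 2.79 CPM at any of these regions.

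**Figure D2:**
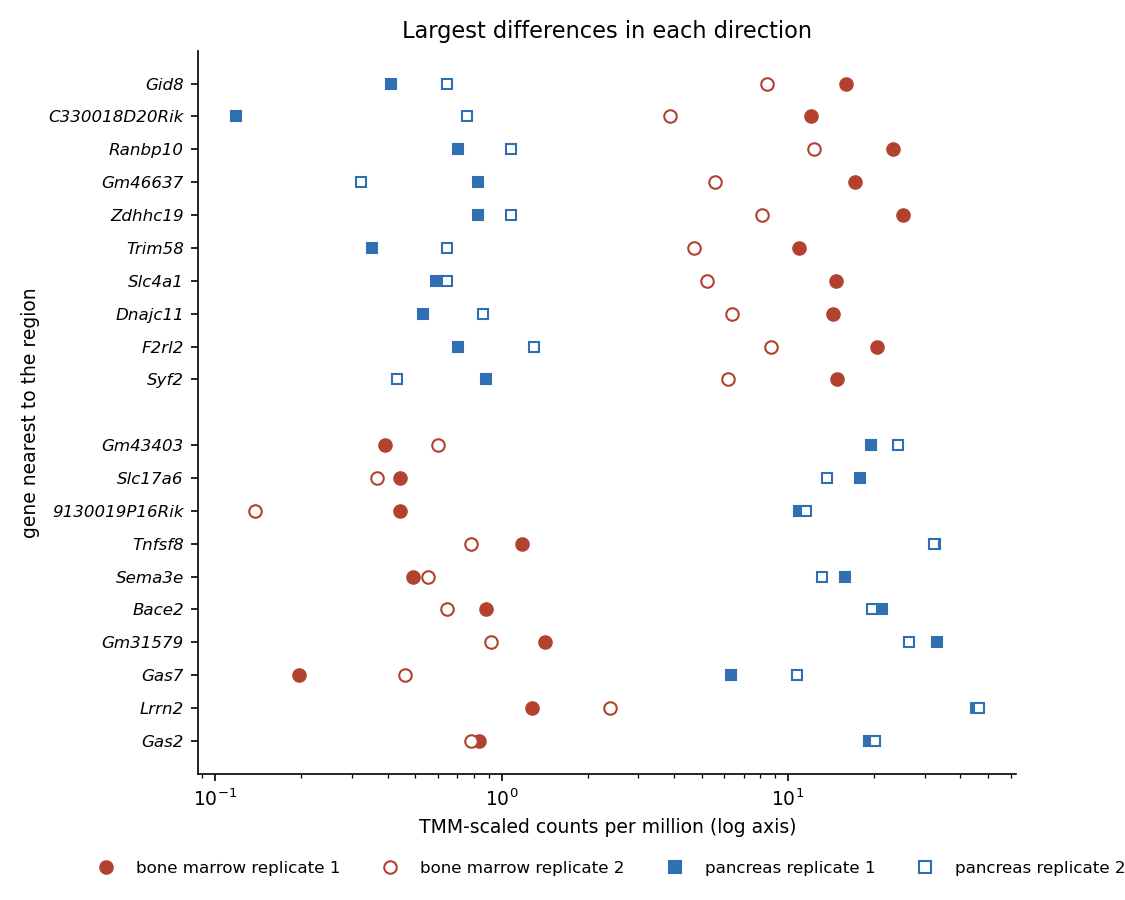
Accessibility in TMM-scaled CPM (x axis, log scale) at the 10 regions with the largest difference in each direction, labelled by the nearest gene (y axis). Circles are BM and squares pancreas libraries, filled for replicate 1 and open for replicate 2. In the upper block the filled BM circle lies to the right of the open one in all 10 rows, whereas in the lower block the pancreas squares lie close together.

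Markers of red cell precursors were read as a whole list of 10 genes. Regions were found at 9 of them, all but *Gata1*, and 9 of their 23 regions (39.1%) in 8 genes were higher in BM, against 9.89% of all regions. Another 2, at *Tal1* and *Tfrc*, were higher in the pancreas. The BM-higher regions included the promoter of the beta-globin gene *Hbb-bs*, with 11.2 and 7.64 CPM in BM and 0.471 and 1.19 CPM in the pancreas (log2 fold change 3.60 ± 0.56, adjusted p = 0.00028). An intron of *Alas2*, the first enzyme of heme synthesis in red cells, had 10.2 and 5.57 CPM against 0.236 and 1.29 CPM (3.53 ± 0.73, adjusted p = 0.00269). At the promoter of the alpha-globin gene *Hba-a1* the values were 13.5 and 6.40 CPM against 2.89 and 2.59 CPM. Globin genes have near-identical copies, so their counts are uncertain. Over the 7 promoter regions of the list, CPM summed to 156 and 122 in BM and to 65.8 and 67.7 in the pancreas, of which the promoter of *Tfrc*, the transferrin receptor gene of many dividing cells, gave 80.7 and 76.1 and then 44.2 and 46.7. Without BM replicate 1, 3 of the 23 regions were higher in BM, compared with 9 without BM replicate 2 and 7 without either pancreas replicate. The part of red cell precursors in the differences between BM and pancreas was not tested.

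The gap between the BM replicates grew with the size of the tissue difference. Outside promoters, the median log2 difference of BM replicate 1 over replicate 2 was 0.14 at BM-higher regions with a log2 fold change of up to 1, 0.16 from 1 to 2, 0.97 from 2 to 3, and 1.24 above 3. Over all regions outside promoters it was 0.02. Of the 534 BM-higher regions above 2, 397 (74.3%) were over 1.5-fold higher in replicate 1 and 128 (24.0%) were within 1.5-fold. GATA letters lay in 66.8% of the former and in 42.2% of the latter. At pancreas-higher regions above 2 in size, 1295 of 1691 (76.6%) were within 1.5-fold between the pancreas replicates.

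A further look was given to BM-higher regions whose BM replicates lay within 1.5-fold of each other, a choice made after the values had been seen. Only regions outside promoters were taken, with a mean of at least 5 CPM in BM and both BM libraries above both pancreas libraries, 1 per gene. The 10 of these with the largest log2 fold change, from 2.96 to 3.49, held other genes than the list above. The largest lay in an exon of *Camsap2*, nearest to the orphan receptor gene *Gpr25* (chr1:136269794-136270305), and had 30.2 and 28.8 CPM in BM and 3.47 and 1.51 CPM in the pancreas. An intron of *Zeb2*, a zinc finger repressor that acts in lymphocyte and myeloid differentiation (chr2:45101893-45102466), had 9.88 and 10.5 CPM against 0.707 and 1.83 CPM. Another in *Mef2c*, a MADS box factor of lymphoid progenitors, had 8.12 and 11.5 CPM against 0.707 and 1.83 CPM.

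In the other direction, the 10 leading pancreas-higher regions had low counts in BM and, at all but *Gas7* (6.30 and 10.8 CPM), pancreas replicates within 1.5-fold of each other. The largest difference lay in an intergenic region nearest to *Gm43403*, with 0.391 and 0.598 CPM in BM and 19.5 and 24.3 CPM in the pancreas (log2 fold change -5.44 ± 0.38, adjusted p = 4.63e-07). Its window, shown above, carries AP-1, GATA, and nuclear receptor letters. An intergenic region nearest to *Tnfsf8*, the gene of CD30 ligand (chr4:63939331-63939860), had 1.17 and 0.782 CPM in BM and 32.6 and 32.4 CPM in the pancreas (-5.05 ± 0.37, adjusted p = 7.51e-07). At an intron of *Bace2*, a transmembrane aspartic protease (chr16:97401661-97402175), the values were 0.881 and 0.644 CPM against 21.4 and 19.6 CPM. An intergenic region nearest to *Sema3e*, a secreted guidance cue, had 0.489 and 0.552 CPM against 15.8 and 13.2 CPM. The other 6 of the 10 lay nearest to *Slc17a6*, *9130019P16Rik*, *Gm31579*, *Gas7*, *Lrrn2*, and *Gas2*, with log2 fold changes from -5.27 to -4.59. Leaving out either BM replicate kept the adjusted p of all 10 at 0.00177 or lower.

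These regions differed in how far other tissues shared them. At *Gm43403* large intestine ILC2s had 24.1 and 28.7 CPM and lung ILC2s 4.51 and 3.78 CPM. At *Lrrn2*, where the pancreas had 45.2 and 46.5 CPM, lung ILC2s had 53.9 and 70.9 CPM. At *9130019P16Rik*, in contrast, the pancreas had 10.9 and 11.5 CPM and no library of lung, large intestine, or small intestine exceeded 1.83 CPM. Over the 7167 pancreas-higher regions, the level of large intestine ILC2s lay nearer to BM than to the pancreas in 14.9%, that of lung ILC2s in 31.7%, and that of small intestine ILC2s in 50.0%. Over the 4944 BM-higher regions, the shares nearer to BM were 12.6%, 33.1%, and 41.8%. These shares use the BM and pancreas values that chose the regions and are a description.

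Short letter matches differed between the directions. AP-1, the family of Fos and Jun, binds TGANTCA, and GATA factors bind AGATAA. In a window of 400 bp around the centre, AP-1 letters lay in 46.0% of the 6807 pancreas-higher regions outside promoters, in 11.7% of the 2828 BM-higher regions, and in 20.5% of regions that were not called, with 24.2% over all. GATA letters lay in 32.3% of BM-higher, 27.4% of pancreas-higher, and 22.8% of uncalled regions. Within a GC band of 45 to 55%, the AP-1 shares were 45.2%, 13.4%, and 21.7% (pancreas-higher, BM-higher, uncalled) and the GATA shares 23.2%, 40.3%, and 21.8%. The share with AP-1 letters fell from 54.1% of regions with a log2 fold change under -3 to 7.14% of those over 3, while the share with GATA letters rose from 20.8% between 0 and 1 to 63.4% over 3. At the pancreas end the GATA share rose as well, from 23.9% between -1 and 0 to 33.6% under -3. Promoters showed the same order for AP-1, with 24.4% of the pancreas-higher and 3.40% of the BM-higher. For GATA the order at promoters was reversed, with 16.4% of the pancreas-higher, 6.19% of the BM-higher, and 7.47% of the uncalled. Within 45 to 55% GC these promoter shares were 23.5%, 21.6%, and 17.6%.

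Other letters differed between the directions to varying degrees. Nuclear receptor half-sites (AGGTCA) lay outside promoters in 31.9% of pancreas-higher and 21.7% of BM-higher regions, against 23.8% of uncalled ones. RUNX letters (TGTGGTT) stood at 20.0%, 16.1%, and 17.3% in that order, and STAT letters (TTCNNNGAA) at 12.9%, 9.72%, and 11.4%. CTCF letters (AGGGGGC) were in 4.38% of pancreas-higher, 11.7% of BM-higher, and 10.5% of uncalled regions, and in a GC band of 45 to 55% in 4.99%, 8.76%, and 10.3%. At promoters, the GC box (GGGCGGGG) lay in 45.5% of BM-higher and 20.3% of pancreas-higher regions, and ETS letters (CCGGAAG) in 23.8% and 5.00%. Among promoters of 45 to 55% GC (218 BM-higher, 136 pancreas-higher), the GC box lay in 17.9% and 5.15%, against 10.4% of uncalled ones. ETS letters lay there in 15.6% and 4.41%, against 15.0% of uncalled ones. The remaining sets were TCF-1 (ATCAAAG), NF-kappaB (GGGANTTCC), C/EBP (TTGCNNAA), IRF (GAAANNGAA), CRE (TGACGTCA), AHR (GCGTG), KLF, E-box, and NFY. A match describes the letters of a window and does not show that a factor binds there.

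**Figure D3:**
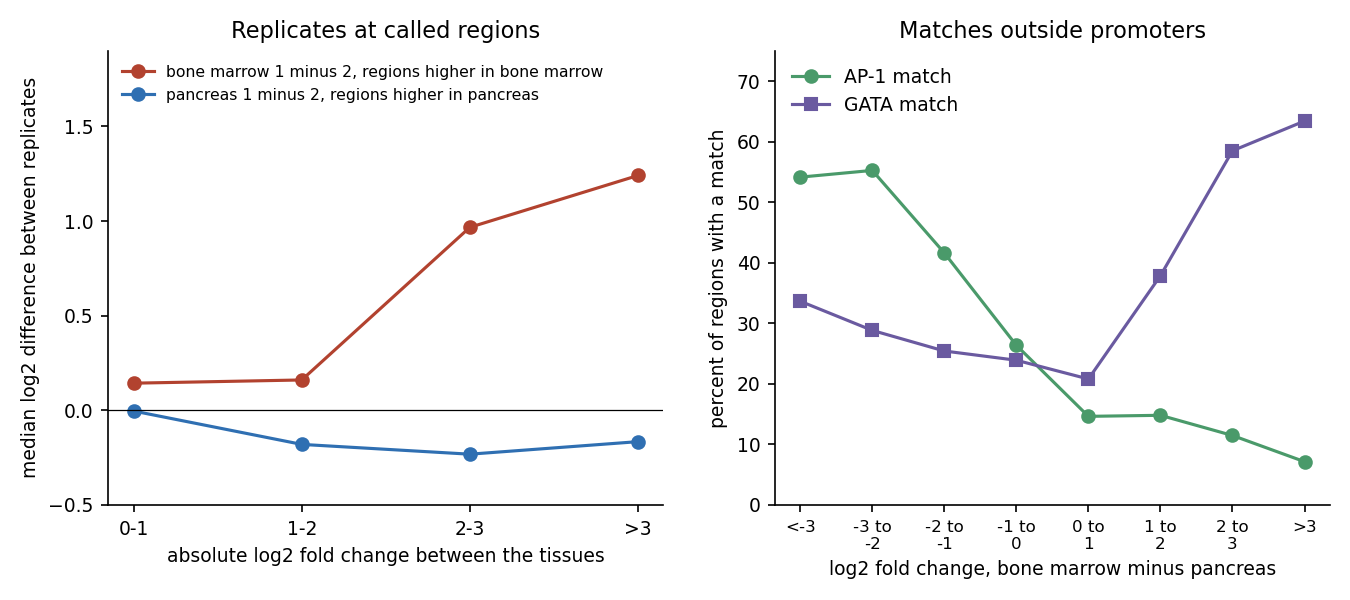
Left, the median log2 difference of replicate 1 over replicate 2 within a tissue (y axis) at called regions outside promoters, by the absolute log2 fold change between the tissues (x axis), where the BM line climbs to 1.24 and the pancreas line stays between -0.23 and 0. Right, the percent of all tested regions outside promoters with AP-1 or GATA letters (y axis) by the log2 fold change (x axis), with AP-1 falling to 7.14% and GATA rising to 63.4% at the BM end.

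Of the genes used for the gates, *Il1rl1*, *Ptprc*, and *Il2ra* had a larger share of pancreas-higher regions than the 14.3% of all regions, and *Il7r* a smaller one. Of 68 regions at *Il1rl1*, *Ptprc*, *Il2ra*, and *Il7r*, 25 (36.8%) were higher in the pancreas and 1 in BM. *Il1rl1*, which encodes the IL-33 receptor ST2 that both gates required, had 12 of 19 regions higher in the pancreas and none in BM. The largest of these differences lay in its intron 8 (chr1:40448262-40448777), with 1.47 and 1.06 CPM in BM and 21.1 and 17.0 CPM in the pancreas (log2 fold change -3.92 ± 0.35, adjusted p = 2.37e-06). The proximal promoter region had 4.26 and 3.77 CPM against 15.0 and 13.7 CPM (-1.84 ± 0.36, adjusted p = 0.00182). The distal promoter region had 22.6 and 13.0 CPM against 27 and 15.2 CPM and did not pass the test (adjusted p = 0.591).

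**Figure D4:**
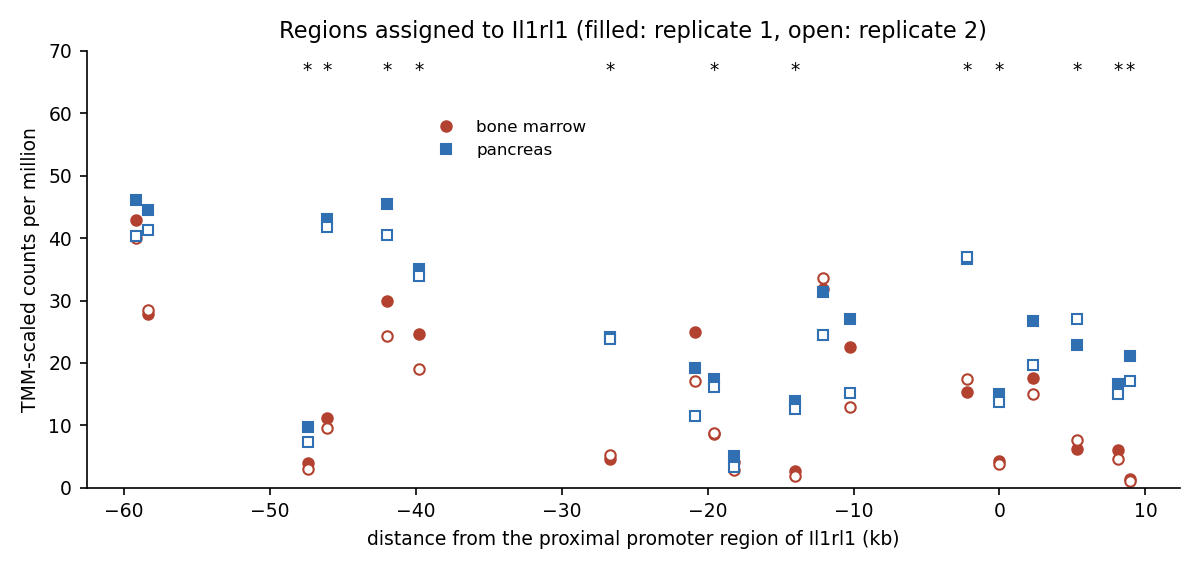
Accessibility in TMM-scaled CPM (y axis) of the 19 regions assigned to *Il1rl1*, by distance in kb from its proximal promoter region (x axis). Circles are BM and squares pancreas libraries, filled for replicate 1 and open for replicate 2, and asterisks mark the 12 regions that passed the test, at all of which the squares lie above the circles.

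*Ptprc*, which encodes CD45, had 8 of 20 regions higher in the pancreas, led by one in intron 1 (chr1:138166197-138166753) with 5.29 and 4.33 CPM in BM and 32.4 and 33.1 CPM in the pancreas. Its leading promoter region had 17.5 and 12.2 CPM against 17.5 and 17.3 CPM, with an adjusted p of 0.543. *Il2ra* (CD25) had 4 of 13 regions higher in the pancreas, including its promoter at 22.4 and 23.1 CPM against 37.7 and 40.2 CPM (adjusted p = 0.00873). *Il7r* (CD127) had 1 of 16, an intergenic region (chr15:9555862-9556397) with 6.61 and 6.95 CPM against 16.3 and 19.5 CPM. The pancreas gate selected CD45 and CD127 and the BM gate did not, so for these genes the choice of cells and the tissue cannot be told apart. The count of 25 was 13 without BM replicate 1, 15 without BM replicate 2, 17 without pancreas replicate 1, and 13 without pancreas replicate 2. With the trend in GC content and width removed it was 14, and 6 regions were higher in BM.

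Among 25 genes of ILC2 identity and type 2 cytokines, 53 of 252 regions (21%) were higher in the pancreas and 15 (5.95%) in BM, with a median log2 fold change of -0.30 against 0.01 over all regions. The promoter region of *Gata3* with most counts had 56.6 and 50.9 CPM in BM and 50.8 and 49.9 CPM in the pancreas (adjusted p = 0.754), and 3 of its 19 regions passed the test, 1 of them higher in BM. The promoter of *Klrg1*, a maturation receptor of lymphocytes (chr6:122283482-122284003), had 7.58 and 8.70 CPM against 53.0 and 55.4 CPM (log2 fold change -2.73 ± 0.29, adjusted p = 1.14e-05). *Il10*, encoding a regulatory cytokine, had 6 of 11 regions higher in the pancreas, and *Areg*, encoding amphiregulin, 2 of 5.

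The 15 BM-higher regions of the same list lay at *Rora* (4), *Il4*, *Il13*, *Icos*, and *Calca* (2 each), and *Gata3*, *Ptprc*, and *Pparg* (1 each). The promoter of *Il4* had 24.8 and 18.4 CPM in BM and 12.4 and 11.4 CPM in the pancreas (log2 fold change 0.86, adjusted p = 0.0165). An intergenic region nearest to *Calca*, the gene of a neuropeptide that ILC2s make (chr7:114646099-114646639), had 24.2 and 23.6 CPM against 8.36 and 7.87 CPM (1.55 ± 0.26, adjusted p = 0.000575). The promoter region of *Il5* with most counts had 21.2 and 18.6 CPM against 33.9 and 30.4 CPM and missed the threshold (adjusted p = 0.0786), while its other promoter region was higher in the pancreas at 3.23 and 3.91 CPM against 10.5 and 9.06 CPM (-1.46, adjusted p = 0.00411). *Rora*, a nuclear receptor that ILC2s need, had 4 regions in each direction among 29. The pancreas-higher count of the list was 27 without BM replicate 1, 36 without BM replicate 2, 38 without pancreas replicate 1, and 28 without pancreas replicate 2, and the BM-higher count 5, 5, 7, and 3. With the trend in GC content and width removed, 38 regions (15.1%) were higher in the pancreas and 30 (11.9%) in BM, against 11% and 9.99% of all regions.

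Effector and tissue adaptation genes leaned to the pancreas. Of 265 regions at 36 genes, 80 (30.2%) were higher in the pancreas, in 27 genes, and 13 (4.91%) in BM, in 7 genes, with a median log2 fold change of -0.43. Receptors of the list went both ways. *Tigit*, an inhibitory receptor, had 9 of 12 regions higher in the pancreas, led by intron 2 (chr16:43661449-43661980) with 1.27 and 1.79 CPM in BM and 17.0 and 23.9 CPM in the pancreas (-3.72 ± 0.34, adjusted p = 2.88e-06). *Cd28*, a co-stimulatory receptor, had 7 of 8, with 5.87 and 11.4 CPM against 28.7 and 27.2 CPM at its promoter (-1.70, adjusted p = 0.000647). *Nrp1*, encoding neuropilin 1, had 14 of 22, and its promoter stood at 4.94 and 7.68 CPM against 19.3 and 15.9 CPM. The promoter of *Pdcd1*, which encodes PD-1, had 4.36 and 4.09 CPM against 8.48 and 7.55 CPM (-0.93, adjusted p = 0.0284). The leading region of *Lag3*, another inhibitory receptor gene, was higher in BM, with 19.5 and 25.2 CPM against 8.42 and 7.55 CPM (1.48 ± 0.27, adjusted p = 0.00116).

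At *S100a10*, an annexin partner, 5 of 9 regions were higher in the pancreas, led by an intergenic region (chr3:93597138-93597716) with 8.81 and 12.1 CPM against 57.9 and 62.3 CPM. The promoter of *Lgals1*, which encodes galectin-1, had 14.3 and 12.1 CPM against 21 and 23.0 CPM (-0.74, adjusted p = 0.0226), and that of *S100a4* 7.78 and 5.75 CPM against 13.1 and 14.6 CPM. The promoter of *Lztfl1*, which lies beside *Ccr9*, was higher in BM, with 75.6 and 55.4 CPM against 30.3 and 22.2 CPM (1.31 ± 0.22, adjusted p = 0.000521). The pancreas-higher count of 80 was 48 without BM replicate 1, 53 without BM replicate 2, 63 without pancreas replicate 1, and 51 without pancreas replicate 2, and the BM-higher count of 13 was 7, 8, 6, and 7. With the GC and width trend removed the counts were 64 and 22.

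Factors of ILC development split by gene. Of 383 regions at 27 genes, 92 (24.0%) were higher in the pancreas and 31 (8.09%) in BM. *Zbtb16*, whose product PLZF marks ILC precursors, had 7 of 14 regions higher in BM and 1 in the pancreas. Its leading region, in intron 3 (chr9:48723487-48723987), had 27.2 and 13.3 CPM in BM and 2.24 and 3.02 CPM in the pancreas (2.97 ± 0.42, adjusted p = 0.000132). *Zeb2* had 5 of 10 regions higher in BM and none in the pancreas, and *Runx3* 5 of 21 against 1. The promoter of *Myb*, a factor of progenitor cells, had 9.15 and 7.92 CPM against 4.89 and 2.80 CPM (1.11, adjusted p = 0.0235).

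In contrast, *Bach2*, a repressor of effector differentiation, had 19 of 29 regions higher in the pancreas and none in BM. The region with the smallest p (chr4:32363416-32363981) had 21.7 and 23.0 CPM in BM and 74.1 and 58.1 CPM in the pancreas (-1.57 ± 0.20, adjusted p = 4.29e-05). *Bcl11b*, which maintains ILC2 identity, had 11 of 24, *Ets1* 10 of 29, *Runx1* 9 of 30 against 1 in BM, and *Ikzf1*, encoding Ikaros, 7 of 16. *Foxo1* had 6 of 15, led by intron 1 (chr3:52269928-52271028) with 13.5 and 11.8 CPM against 35.4 and 48.7 CPM. None of the promoters of this list was higher in the pancreas, and 6 of 29 were higher in BM, near the 3.78% and 22.2% of all promoters. The pancreas-higher count of 92 was 52 without BM replicate 1 and lay between 66 and 74 without any other library, and the BM-higher count of 31 was 9 without BM replicate 1, 20 without BM replicate 2, 16 without pancreas replicate 1, and 14 without pancreas replicate 2.

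Homing and residency genes followed the background more closely, with 41 of 239 regions (17.2%) higher in the pancreas and 16 (6.69%) in BM. *Ccr9*, the receptor that guides lymphocytes to the small intestine, had 2 of 4 regions higher in BM and none in the pancreas, the first of them intergenic (chr9:123756705-123757209) with 29.8 and 31.2 CPM in BM and 11.5 and 7.12 CPM in the pancreas (1.69 ± 0.28, adjusted p = 0.000489). The promoter of *Ccr4*, a receptor of skin and lung homing, had 3.82 and 4.92 CPM against 13.1 and 15.7 CPM (-1.72 ± 0.28, adjusted p = 0.000477). *Itgav*, an integrin chain that binds matrix proteins, had 8 of 10 regions higher in the pancreas, *Cd44*, a hyaluronan receptor, 9 of 24, and *S1pr1*, the receptor for egress from tissue, 5 of 16. *Itgb3*, another integrin chain, had 4 of 18 regions higher in BM. The BM-higher count was 1 without BM replicate 1, 16 without BM replicate 2, 3 without pancreas replicate 1, and 6 without pancreas replicate 2, and the pancreas-higher count 23, 27, 30, and 20. With the GC and width trend removed, 26 regions (10.9%) were higher in the pancreas and 27 (11.3%) in BM.

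Immediate-early and other activation-induced factors, which include the AP-1 members themselves, went both ways within a gene. Of 292 regions at 30 genes, 59 (20.2%) were higher in the pancreas and 21 (7.19%) in BM, and 8 genes held both kinds. At *Jun*, a region 2876 bp downstream of the TSS, in its exon (chr4:95049096-95049596), had 27.6 and 41.5 CPM in BM and 10.9 and 4.42 CPM in the pancreas (2.13 ± 0.40, adjusted p = 0.00131). A region 16620 bp downstream of that TSS (chr4:95035335-95035869) had 0.881 and 0.644 CPM against 4.36 and 6.90 CPM (-2.86 ± 0.47, adjusted p = 0.000425). *Fos* showed the same split, with 23.5 and 17.0 CPM against 8.42 and 4.85 CPM just downstream of the gene and 1.08 and 1.89 CPM against 4.83 and 6.58 CPM at an upstream region. *Nr4a2* was led by a BM-higher region at 20.1 and 20.2 CPM against 4.06 and 3.67 CPM (2.37 ± 0.32, adjusted p = 8.94e-05), and its relative *Nr4a3* by a pancreas-higher one at 0.636 and 0.828 CPM against 6.65 and 5.07 CPM. The pancreas-higher count was 35 without BM replicate 1, 43 without BM replicate 2, 44 without pancreas replicate 1, and 35 without pancreas replicate 2, and the BM-higher count 8, 16, 18, and 5.

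Cell cycle genes were the pathway list with the highest BM-higher share, 18 of 84 regions (21.4%) in 12 of 26 genes, against 9 higher in the pancreas (2 without BM replicate 1, 6 without BM replicate 2, 4 without pancreas replicate 1, and 2 without pancreas replicate 2, and 5 with the GC and width trend removed). A region upstream of *Mki67*, the proliferation marker (chr7:135721622-135722230), had 23.5 and 11.2 CPM in BM and 1.71 and 2.16 CPM in the pancreas (3.18 ± 0.40, adjusted p = 4.83e-05). The promoter of *Top2a*, a topoisomerase of dividing cells, had 64.1 and 47.9 CPM against 27.3 and 23.4 CPM (1.14 ± 0.25, adjusted p = 0.00408). At an intron of *Ccnd3*, a D-type cyclin (chr17:47535772-47536272), the values were 21.8 and 8.37 CPM against 0.648 and 2.37 CPM. BM replicate 1 was the higher BM library at each of these. The count of 18 fell when any single library was left out, most without BM replicate 1 and next most without pancreas replicate 2. The BM-higher count over all regions, given above, fell in the same order, so this fall was not particular to the list. Without BM replicate 1 or without pancreas replicate 2, the BM-higher share of the list lay near that of all regions. With the GC and width trend removed the count was 13 (15.5%), against 9.99% of all regions.

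The smaller pathways held fewer calls. In the leukotriene and prostaglandin pathway 18 of 83 regions (21.7%) were higher in the pancreas and 2 in BM. They were led by intron 3 of *Alox5*, which starts leukotriene synthesis (chr6:116439503-116440227), with 5.38 and 7.41 CPM in BM and 23.6 and 29.2 CPM in the pancreas (-2.04 ± 0.26, adjusted p = 5.5e-05). The TGF-beta pathway had 20 of 148 regions higher in the pancreas and 13 in BM, near the shares of all regions. A region nearest to the inhibitor *Smad7* had 13.3 and 11.3 CPM against 2.59 and 3.67 CPM (2.00 ± 0.32, adjusted p = 0.000348), whereas a region in an intron of *Ttll5* nearest to the ligand gene *Tgfb3* had 6.36 and 4.56 CPM against 26.9 and 28.7 CPM (-2.35 ± 0.26, adjusted p = 1.57e-05). Kruppel-like factors had 25 of 113 regions (22.1%) higher in the pancreas and 10 (8.85%) in BM, with the promoters of *Klf13* and *Klf6* among the latter. Interferon-stimulated genes had 5 and 6 of 61 (8.20% and 9.84%). Without single libraries, the pancreas-higher counts of these 4 lists ranged from 9 to 15, 5 to 11, 12 to 17, and 2 to 5, and the BM-higher counts from 0 to 1, 1 to 9, 1 to 8, and 1 to 4. With the GC and width trend removed, the TGF-beta count in the pancreas was 10, and the BM-higher count was 6 in the leukotriene pathway and 9 among interferon-stimulated genes.

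Gene lists from the study's single-cell RNA sequencing of ILC2s, which used other libraries, were set beside accessibility. Of 268 regions at genes with more mRNA in BM ILC2s than in ILC2s of the other tissues, 69 (25.7%) were higher in BM and 16 (5.97%) in the pancreas, with a median log2 fold change of 0.35. At genes with less mRNA in BM ILC2s, 221 of 680 regions (32.5%) were higher in the pancreas and 31 (4.56%) in BM. Genes with more mRNA in pancreas ILC2s had 59 of 182 regions (32.4%) higher in the pancreas and 9 (4.95%) in BM, and those with less had 21 of 84 (25%) higher in BM and 5 in the pancreas. The promoters of the BM mRNA-higher genes were higher in BM at 22 of 43 and in the pancreas at none, against 22.2% and 3.78% of all promoters.

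Named regions of these lists included *Zfp36*, which encodes a protein that destabilises mRNA, with 164 and 167 CPM in BM and 67.7 and 42.1 CPM in the pancreas downstream of its TSS (1.59 ± 0.27, adjusted p = 0.000674). *Stc2*, a secreted glycoprotein gene with more mRNA in pancreas ILC2s, had 1.61 and 1.15 CPM against 19.8 and 26.6 CPM at its promoter (-4.06 ± 0.37, adjusted p = 3.01e-06). The chemokine gene *Cxcl2*, with less mRNA in BM ILC2s, had 13.5 and 15.8 CPM against 62.4 and 69.1 CPM at its promoter (-2.16 ± 0.19, adjusted p = 2.14e-06), and an intron of the chromatin remodeller *Chd7* 0.783 and 0.414 CPM against 12.4 and 15.0 CPM. The BM-higher count of 69 was 15 without BM replicate 1, 58 without BM replicate 2, 43 without pancreas replicate 1, and 16 without pancreas replicate 2. The pancreas-higher counts of 221 and 59 were 124 and 35 without BM replicate 1, 172 and 39 without BM replicate 2, 175 and 45 without pancreas replicate 1, and 139 and 38 without pancreas replicate 2. At the genes with less mRNA in the pancreas the count of 21 was 10, 17, 14, and 12. With the GC and width trend removed, the counts that went against the mRNA were 8 in place of 16 and 3 in place of 5 pancreas-higher regions at the BM mRNA-higher and pancreas mRNA-lower genes.

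**Figure D5:**
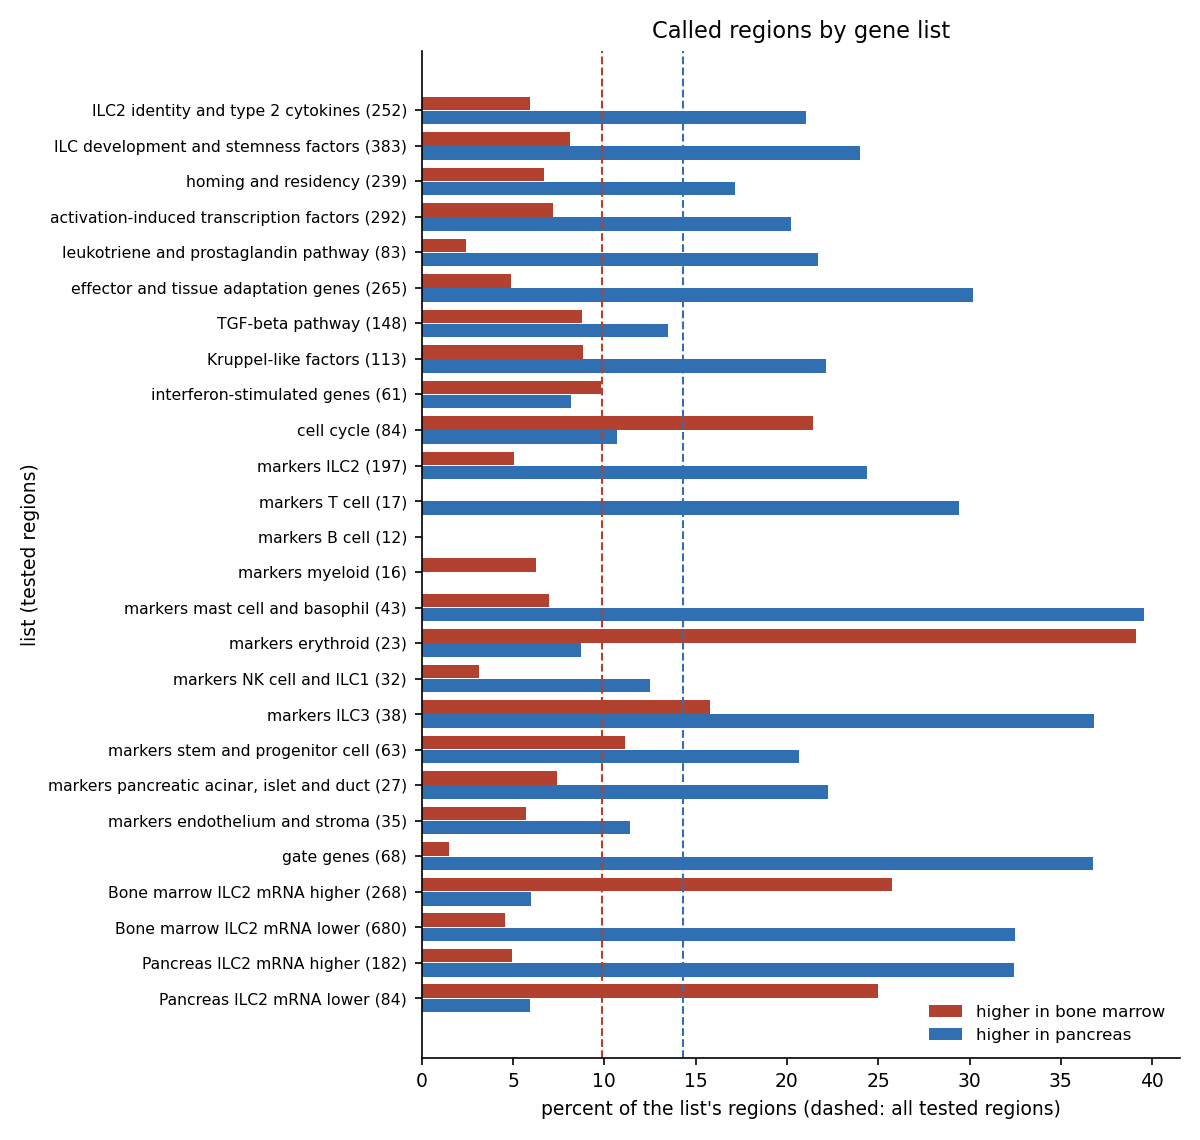
Percent of the tested regions of each gene list (y axis, with the number of regions) that were higher in BM or in the pancreas (x axis, bars from 0). Dashed lines are the shares of all tested regions, 9.89% and 14.3%. The erythroid markers, both lists of genes with more mRNA in BM or less in the pancreas, and the cell cycle genes reach past the BM line by the most, and the mast cell, ILC3, and gate genes past the pancreas line. The mast cell, ILC3, and progenitor lists share the regions at *Kit*.

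Called regions gathered at some genes, without covering all regions of a gene. In BM, *Gse1*, a subunit of a histone deacetylase complex, had 12 of 19 regions higher over 169 kb and 1 lower, *Ptpre*, a tyrosine phosphatase, 10 of 13, *Dhrs3*, which reduces retinal, 10 of 23 with 4 others higher in the pancreas, and *Aff3*, a nuclear factor of lymphoid cells, 7 of 14. The medians of their called regions were 1.43, 1.56, 1.56, and 1.81 on the log2 scale. Both *F830010H11Rik* (9 of 11) and *Rny3* (8 of 10) lie on chromosome 6 within a stretch of neighbouring regions, with medians of 0.97 and 0.96. In the pancreas, *Atp10a*, a lipid flippase, had 21 of 30 regions higher and 1 lower, *Trib2*, a pseudokinase, 17 of 30, *Atp2b1*, a calcium pump, 16 of 34 with 1 lower, *Mdfic* 15 of 26, and *Atxn1* 15 of 33, beside the 19 of *Bach2*. Their medians lay between -1.81 and -1.30, and none of the called regions of these 6 genes was a promoter. Of 16327 genes with a tested region, 4015 had one higher in BM, 3674 one higher in the pancreas, and 750 both.

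Markers of other cells were checked at their promoter regions. ILC2 markers had regions at all 12 genes, and CPM at their 15 promoter regions summed to 352 and 337 in BM and 442 and 398 in the pancreas. B cell markers had regions at 4 of 8 genes (with none at *Cd79a*, *Ms4a1*, or *Pax5*). Pancreatic markers had regions at 9 of 18 (none at *Ins1*, *Ins2*, or *Pdx1*), and myeloid markers at 9 of 14 (none at *Csf1r*, *Csf3r*, *Lyz2*, *S100a8*, or *Siglech*). Of 16 myeloid regions, 1 (6.25%) was higher in BM and none in the pancreas, against 9.89% and 14.3% of all regions. It lay nearest to *Cebpe*, with 20.8 and 9.76 CPM in BM and 2.41 and 4.31 CPM in the pancreas (2.22 ± 0.39, adjusted p = 0.000788). T cell markers had regions at 7 of 10 genes (none at *Cd8a*, *Cd8b1*, or *Foxp3*), and 5 of their 17 regions (29.4%) were higher in the pancreas, against 14.3% of all regions. They included an intron of *Zap70*, a kinase of T and NK cell receptors, with 5.97 and 6.58 CPM in BM and 40.0 and 56.8 CPM in the pancreas, and the promoter of *Cd3g*, a chain of the T cell receptor complex, with 1.32 and 1.38 CPM against 5.30 and 5.93 CPM. The T cell promoter sum was 32.4 and 29.8 CPM in BM and 63.3 and 65.9 CPM in the pancreas, and the part of T cells was not tested.

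The mast cell and basophil list had 17 of 43 regions (39.5%) higher in the pancreas and 3 (6.98%) in BM. Those higher in BM lay at *Cpa3*, *Kit*, and *Gata2*. The *Cpa3* region had 12.7 and 19.7 CPM in BM and 5.89 and 6.26 CPM in the pancreas (1.42 ± 0.30, adjusted p = 0.00317). Regions of the mast cell list lay at 6 of its 12 genes and none at *Fcer1a*, *Ms4a2*, or *Mcpt4*. Its leading region was in intron 1 of *Kit*, the stem cell factor receptor, which the ILC3 and progenitor lists also hold, with 12.0 and 13.4 CPM against 59.2 and 59.6 CPM (-2.22 ± 0.23, adjusted p = 7.26e-06). Regions at *Kit* therefore count in each of these lists, which are not separate signals. The pancreas-higher regions lay at 4 genes of the mast cell list, 3 of the ILC3 list, and 2 of the progenitor list, *Kit* and *Hlf*. The ILC3 list had 14 of 38 regions (36.8%) higher in the pancreas and 6 (15.8%) in BM, and the NK cell list 4 and 1 of 32 (12.5% and 3.1%). Stem and progenitor markers had 7 of 63 regions (11.1%) higher in BM and 13 (20.6%) in the pancreas, beside 9.89% and 14.3% of all regions. The BM share was thus near that of all regions. An intron of *Erg*, a factor of blood stem cells, was among the BM-higher ones at 11 and 13.4 CPM against 1.53 and 2.16 CPM (2.75 ± 0.44, adjusted p = 0.000385). Of the pancreatic markers 2 and 6 of 27 regions (7.41% and 22.2%), and of the endothelial and stromal markers 2 and 4 of 35 (5.71% and 11.4%), were higher in BM and in the pancreas. At the promoters of these last lists the summed CPM was 9.54 and 9.48 in BM against 5.83 and 7.01 in the pancreas, and 11.3 and 14.4 against 17.7 and 12.4. Without BM replicate 1, BM replicate 2, pancreas replicate 1, and pancreas replicate 2, in that order, the pancreas-higher count was 4, 3, 6, and 3 for the T cell list, 8, 8, 14, and 5 for the mast cell list, 8, 7, 10, and 6 for the ILC3 list, 9, 7, 11, and 5 for the progenitor list, and 1, 2, 3, and 2 for the pancreatic list. The BM-higher count of the progenitor list was 3, 5, 2, and 7 in the same order and that of the ILC3 list 2, 2, 0, and 2. With the GC and width trend removed, the pancreas-higher count was 10 for the mast cell list, 9 for the ILC3 list, and 2 for the pancreatic list, and the BM-higher count was 13 for the progenitor list, 4 for the pancreatic and for the stromal list, and 3 for the NK cell list.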

How the data were processed

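ATAC-seq reads of sorted ILC2s were mapped by the authors to mm10 with Bowtie2 2.2.9, processed with SAMtools 1.8 after FastQC 0.11.9, and called into peaks with MACS2 2.1.1, per the labels. HOMER merged the peaks that both libraries of a tissue shared, across 5 tissues, and bedtools counted reads per merged peak. The authors deposited these raw counts without normalization. Removal of duplicate or mitochondrial reads and a shift of reads for the transposase are not given in the sources used here, and PCR reads are not independent molecules.

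The test was edgeR 4.0.16 (R 4.3.3; TMM scaling, glmQLFit, glmQLFTest) on every region with 1 count or more, fitted over all 10 libraries by tissue. Fold changes are BM minus pancreas. The adjusted p threshold was 0.05 (Benjamini-Hochberg over all tested regions), and the prior count of log2 CPM was 2. The steps were tested on simulated data. DESeq2 1.42.0, which the study used, was an alternative. Regions were annotated with curated RefSeq transcripts of GRCm38 (24775 genes), and matches were sought in 400 bp around each centre.

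The regions, gene lists, and tests were chosen with earlier results of these data known. Named regions were, in each direction, the 10 with the largest fold change among those with at least 5 CPM in the higher tissue and no overlap of libraries (1 per gene), the 6 genes with most called regions, and up to 4 genes per list by smallest p, given by that region and by the promoter region with most counts. Other genes of a list were named for their counts of called regions after these had been seen. No column of a comparison made by the authors was used. Leaving out a library leaves 1 in that tissue, which is assumed to vary like the other tissues. The look at BM-higher regions with even replicates was chosen after seeing the data. The lists of genes by mRNA came from the study's single-cell RNA-seq supplement. Some genes of the lists are counted but not reported by name here.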

Additional observations from a re-analysis of the deposited data

How the results depend on the processing

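The counts of 4944 BM-higher and 7167 pancreas-higher regions stayed within 1.5 times under other scalings, filters, DESeq2, edgeR on the 4 libraries, thinning, and removed trends, with 4608 to 5758 and 5481 to 8039 regions. Leaving out a library gave 858 to 3681 BM-higher and 3575 to 5451 pancreas-higher regions. Without an adjustment of p, 8472 regions were BM-higher and 10155 pancreas-higher, and a log2 fold change over 1 left 2028 and 5833. The promoter share of BM-higher regions (42.8%) was 38.6% with library size alone, 37.4% with edgeR on the 4 libraries, 19.3% with the GC and width trend removed, 25.6% with the mean count trend removed, 40.8% at an unadjusted p, 16.0% at a log2 fold change over 1, 52.8% with promoters reaching 1000 bp to both sides, and 20.0% to 50.5% without a library. That of pancreas-higher regions (5.02%) was 4.53% with library size alone, 7.61% with the GC and width trend removed, 5.60% at an unadjusted p, 3.94% at a log2 fold change over 1, 7.46% with the wider promoter, and 3.50% to 4.79% without a library. The GC trend and the number of libraries enter these settings by construction, and the cause of the other moves was not tested. Leaving out regions with over 50000 counts, chosen after seeing the data, gave 5100 and 7108. Of 3584 values of the 224 named regions under 16 settings, 0 changed direction and 268 no longer passed the threshold, 194 of them without a library. Many named regions were chosen for a large fold change or a small p, so a change of direction was unlikely from the start. Thinning all libraries to the size of the smallest, pancreas replicate 2, left 4672 and 6749 regions.

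The replicate numbers carry no stated pairing. Deviations of same-numbered BM and pancreas libraries correlated at -0.0995, and a fit with the replicate number as a block called 4741 BM-higher and 7255 pancreas-higher regions, with promoter shares of 41.5% and 4.82%.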
